A study of Mus musculus with 6 samples.

Results

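Sox5 and Sox6 encode SoxD transcription factors that work with Sox9 in cartilage. Open chromatin around both genes was read from ATAC-seq peak lists of ATDC5 cells at 3 days of differentiation. The peaks were chosen by position alone, as those whose summit lay in a window on chromosome 6 from 143700000 to 144900000 for Sox5, or in a window on chromosome 7 from 114970000 to 115850000 for Sox6. Positions are those of the lists, read as GRCm39. The Sox5 window held 113 and 116 of the 164642 and 164960 peaks listed in the Day0 libraries, 116 and 110 of the 177751 and 177111 listed in the Day3 libraries, and 342 and 362 of the 381376 and 390100 listed in the Day10 libraries. The Sox6 window held 63 and 61 peaks at Day0, then 69 and 68 at Day3, then 275 and 297 at Day10.

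ATDC5 is a mouse cell line of chondrocyte precursors, and the labels call its cells pre-chondrocytes. ATAC-seq marks open chromatin by the insertion of sequencing adapters by the Tn5 transposase. Cells were spotted as dense droplets and given ascorbate-2-phosphate and beta-glycerophosphate in the medium. The groups Day0 (labelled control), Day3 and Day10 (both labelled differentiation) have 2 libraries each. All libraries come from 1 cell line, and the lists hold no RNA values, so neither the labelled cell type nor the expression of Sox5 and Sox6 was checked.

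Sox5 and Sox6 bind DNA through an HMG box and pair with each other through a coiled coil, and they lack a transactivation domain of their own. In mouse cartilage they are made together with Sox9, whose binding to cartilage enhancers they strengthen, and mice that lack both genes form little cartilage. Col2a1 and Acan, which encode the main collagen and the main proteoglycan of cartilage, are among their known targets. Sox6 also acts in red blood cell precursors and muscle, and both genes act in the nervous system.

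Genes were not placed on these positions, since the gene tables used here are for GRCm38.p6. In the order of genes in that table, the nearest protein-coding neighbours of Sox5 are Etnk1 and Bcat1, and those of Sox6 are Insc and 1110004F10Rik, with Plekha7 next. Which regions of the windows lie in the genes, in their introns or beside a neighbour was not determined. For the same reason no letters of the regions below are shown. Shown instead, as the RefSeq GRCm38.p6 sequence of the loci, are the 250 bases before the start listed for Sox5 (chr6:143947107-143947356, minus strand), before start 1 of the 6 starts listed for Sox6 (chr7:116038745-116038994, minus strand) and before start 5 (chr7:115824711-115824960, minus strand). Capitals mark AACAAT or its reverse complement ATTGTT, which reads both strands, letters that SoxD proteins are known to bind.
Sox5: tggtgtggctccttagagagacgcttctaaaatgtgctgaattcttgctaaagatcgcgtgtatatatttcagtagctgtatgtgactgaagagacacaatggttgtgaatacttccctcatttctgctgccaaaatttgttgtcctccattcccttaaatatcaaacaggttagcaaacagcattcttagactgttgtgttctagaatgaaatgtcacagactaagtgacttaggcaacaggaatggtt
Sox6, start 1: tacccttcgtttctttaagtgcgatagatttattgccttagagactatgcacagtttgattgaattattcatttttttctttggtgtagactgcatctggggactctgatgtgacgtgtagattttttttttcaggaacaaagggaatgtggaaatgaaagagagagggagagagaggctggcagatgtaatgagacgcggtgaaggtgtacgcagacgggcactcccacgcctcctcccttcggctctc
Sox6, start 5: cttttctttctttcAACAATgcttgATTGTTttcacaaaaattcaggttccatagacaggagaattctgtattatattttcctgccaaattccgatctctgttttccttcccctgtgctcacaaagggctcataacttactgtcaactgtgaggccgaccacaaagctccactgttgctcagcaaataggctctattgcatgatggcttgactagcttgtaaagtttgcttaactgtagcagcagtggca
The letters occurred 2 times before start 5 of Sox6 and in none of the other 6 stretches of these genes. They occurred in 9.42% of the 32851 RefSeq promoters read over the same length. CG pairs numbered 3 in the Sox5 stretch, 9 before start 1 and 2 before start 5 of Sox6, beside a median of 6 over all promoters. Whether a listed peak covers these stretches was not determined.

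Both windows listed more peaks at Day10 than at Day0, by a larger factor than the lists as a whole. In the Sox6 window the mean was 286 peaks at Day10, against 62 at Day0, a ratio of 4.61. In the Sox5 window it was 352 at Day10, against 114.5 at Day0, a ratio of 3.07. Over all assembled chromosomes the ratio was 2.34, over chromosome 6 it was 2.45 and over chromosome 7 it was 2.12. The Day10 libraries lay far above the other 4 in both windows, and the Day0 and Day3 libraries overlapped in the Sox5 window. Day3 had 0.99 times as many peaks as Day0 in the Sox5 window and 1.1 times as many in the Sox6 window, beside 1.08 over all chromosomes. No test was run on these ratios, since the smallest two-sided p that an exact permutation test of 2 libraries against 2 can give is 0.333.

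The size of the ratio depended on which peaks were counted. The Sox6 window was above the Sox5 window under all 5 ways of counting. Both were above all chromosomes where the count was not capped at 50000 peaks. Among the 50000 strongest, the ratio over all chromosomes is 1.0 by construction, and the Sox5 ratio was 1.03, as over chromosome 6. Among peaks with an authors' -log10 q of 5 or more, the Day10 to Day0 ratio was 3.13 in the Sox6 window, 1.98 in the Sox5 window and 1.52 over all chromosomes. At 10 or more it was 2.89, 1.8 and 1.47 in the same places. Each library's list depends on its depth, and the background pileup recovered from the authors' fold was 1.0845 and 1.1515 at Day10, against 0.7165 and 0.7308 at Day0. A count added after the data were seen took only Day10 peaks whose pileup over background would have reached the lowest pileup listed at Day0. The ratio was then 3.77 for Sox6, 2.38 for Sox5 and 1.87 over all chromosomes. That count set no limit on width, and the smallest listed widths were 68 and 72 bases at Day10, against 88 and 90 at Day0. Among the 50000 strongest peaks of each library the numbers in the Sox5 window hardly differed, with 40 and 39 at Day10, against 40 and 37 at Day0. In the Sox6 window they were 24 and 25 at Day10, against 14 and 16 at Day0.

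**Figure D1:**
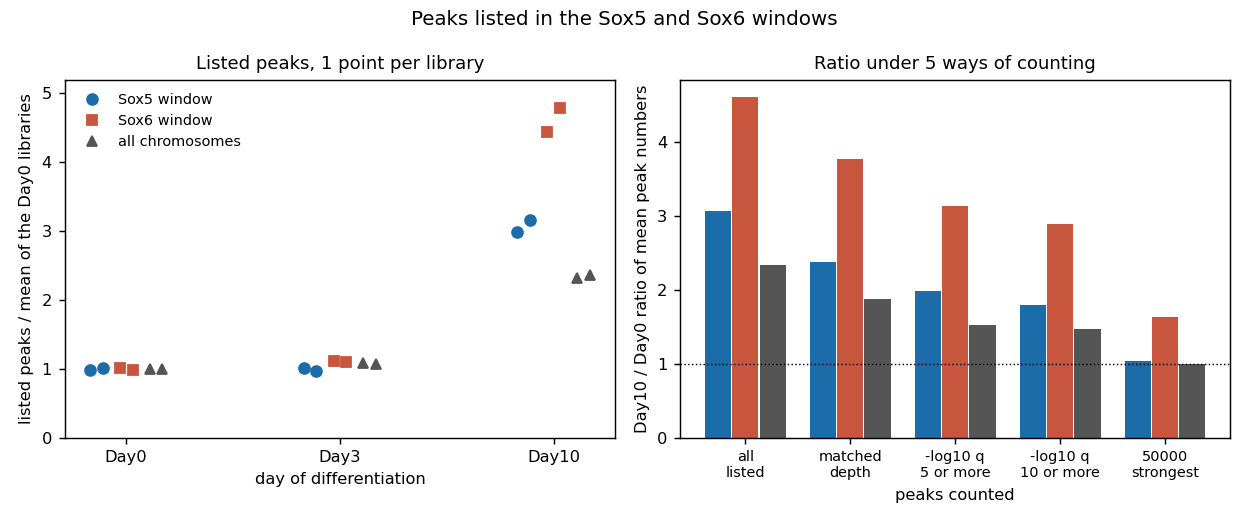
Left, listed peaks in each library divided by the mean of the Day0 libraries (vertical axis) by day, for the Sox5 window, the Sox6 window and all chromosomes. Right, the Day10 to Day0 ratio of mean peak numbers (bars, axis from 0) under 5 ways of counting peaks. The Sox6 window has the tallest bar in each group, 4.61 over all listed peaks, and Day3 stays near Day0.

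Most peaks of the windows at Day10 were weak ones, as over all chromosomes. In the Sox6 window 203 and 225 of the 275 and 297 Day10 peaks ranked beyond 100000 in their library, where rank 1 is the peak with the highest -log10 p. In the Sox5 window 257 and 272 of the 342 and 362 did. The share beyond that rank was 73.8% and 75.8% in the Sox6 window and 75.1% in both libraries in the Sox5 window, beside 73.7% and 74.3% over all chromosomes. Beyond that rank lay 26 and 19 Day0 peaks in the Sox6 window and 40 and 44 in the Sox5 window. Of the Day10 replicate 1 peaks, 93.1% in the Sox6 window and 89.8% in the Sox5 window overlapped a replicate 2 peak by at least 1 base, beside 89.3% over all chromosomes. When overlapping peaks of the 6 libraries were merged, the Sox6 window held 314 sites, of which 177 (56.4%) were listed in both Day10 libraries and in no other. The Sox5 window held 395 sites, of which 170 (43.0%) were of this kind, and of all 439652 merged sites 35.0% were. Sites listed in all 6 libraries made up 12.4% of the Sox6 sites (39) and 18.0% of the Sox5 sites (71), beside 22.1% of all sites. The median width of peaks in the Sox6 window was 173 and 170 bases at Day10, against 235 and 260 bases at Day0. In the Sox5 window it was 166 and 164 bases at Day10, against 281 and 274.5 bases at Day0. Over all chromosomes it was 161 and 166 bases at Day10, against 230 and 233 bases at Day0. In length, listed peaks covered 66.1 and 71.5 kb of the Sox6 window at Day10, against 17.2 and 17.9 kb at Day0, and 85.4 and 91.7 kb of the Sox5 window at Day10, against 40.4 and 40.8 kb at Day0. All listed peaks covered 101.42 and 107.06 Mb at Day10, against 55.76 and 56.38 Mb at Day0.

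To compare equal numbers of strong peaks, windows reaching 250 bases to either side were set on the summits of the 50000 strongest peaks of each library, which gave 78698 regions, 64 of them in the Sox5 window and 37 in the Sox6 window. A region counted as gained where both later libraries had it at rank 50000 or better, and both earlier libraries had it beyond rank 100000 or had no peak there. The reverse made a lost region. Both the best peak with its summit in the region and the best overlapping peak had to meet it. Levels below are the authors' fold over background of the best overlapping peak.

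At Day10 against Day0, both loci gained open regions, and most of the regions lost lay in the Sox5 window. Of the 37 Sox6 regions, 8 (21.6%) were gained and 1 (2.7%) was lost. Of the 64 Sox5 regions, 10 (15.6%) were gained and 8 (12.5%) were lost. Among all 78698 regions 10.7% were gained and 7.99% were lost. The difference between the windows was not tested. Every one of the 18 gained regions was also out of the 100000 strongest, or not listed, in both Day3 libraries, and of all regions gained at Day10 against Day0 66.3% were. The comparisons with Day0 and Day3 share the Day10 libraries. Against Day3, the Day10 libraries gained the same 10 Sox5 and 8 Sox6 regions, beside 7.72% of all regions. They lost 1 Sox5 region and 0 Sox6 regions against Day3, beside 3.16% of all regions. The counts moved with the ranks asked for. With rank 30000 in place of 50000, 4 Sox5 and 3 Sox6 regions were gained at Day10 against Day0, beside 4.06% of all regions, and 5 Sox5 and 0 Sox6 regions were lost, beside 2.21%. With no gap between the ranks, 17 Sox5 and 11 Sox6 regions were gained, beside 18.1% of all regions, and 19 Sox5 and 4 Sox6 regions were lost, beside 17.5%.

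At Day3 against Day0 no region of either window was gained or lost, and 0.543% and 0.513% of all regions were. With 101 regions in the windows, these shares correspond to fewer than 1 region each. Smaller changes were present at Day3. Under a rule that asks only for a fold 2 times as high in the lowest library of one day as in the highest of the other, with a rank of 50000 or better on the higher day, 1 Sox5 region was gained and 6 were lost, and 0 Sox6 regions were gained or lost, beside 1.09% gained and 3.32% lost over all regions. One of the 6, from 143913694 to 143914194, was highest at Day0 and lowest at Day3, with a fold of 18.6 and 20.2 at Day0, then 7.8 and 8.9 at Day3, then 12.5 and 13.9 at Day10. No Day10 summit lay in this region, so its Day10 folds are those of overlapping peaks with summits outside it. The other 5 of the 6 were 5 of the 8 regions lost at Day10.

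**Figure D2:**
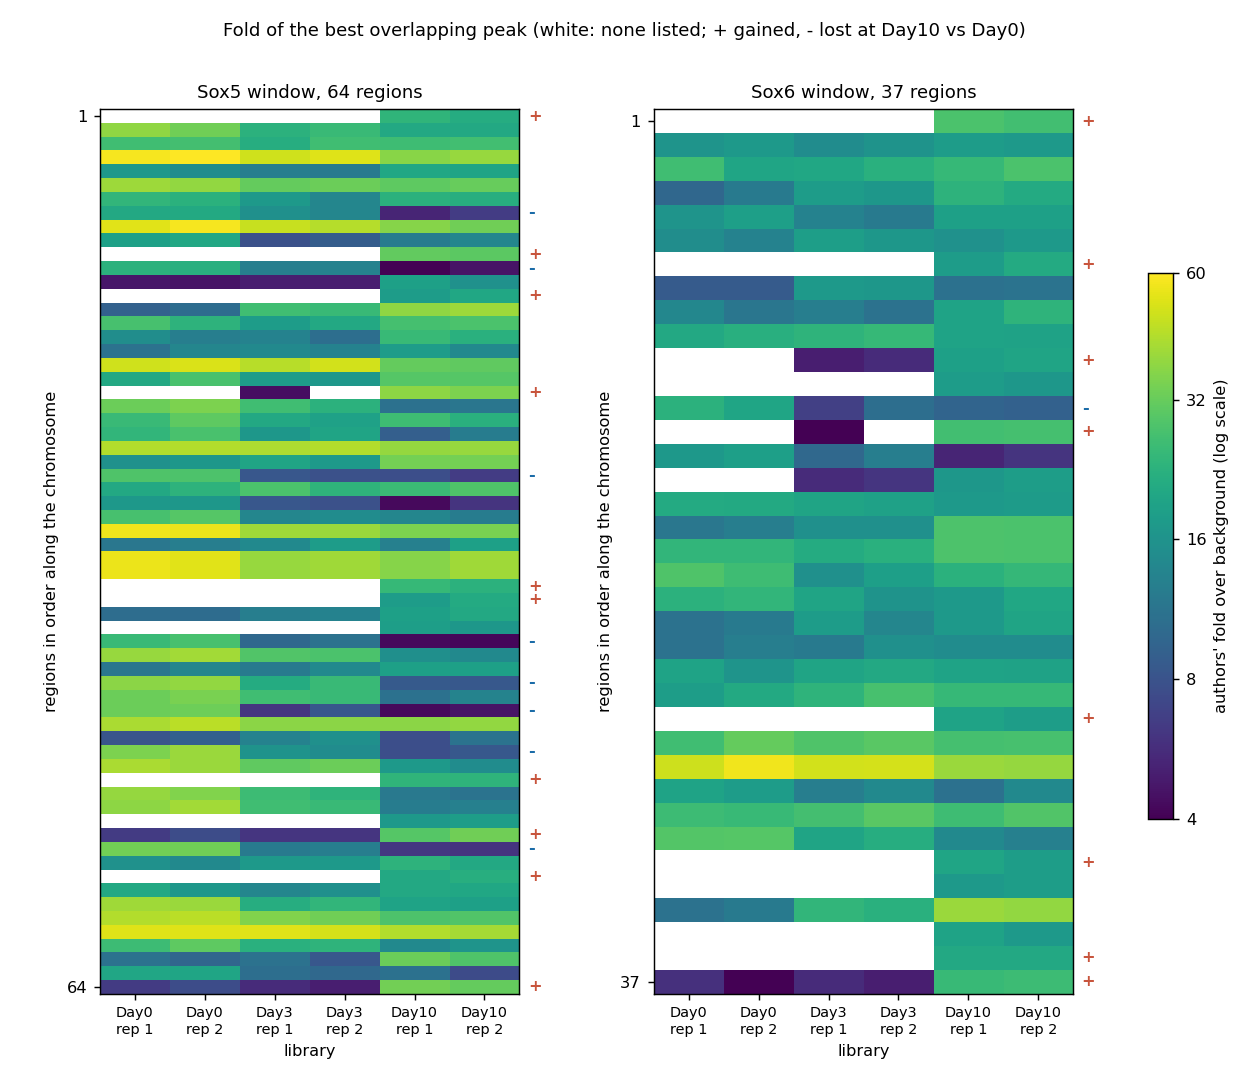
Authors' fold over background (colour, log scale) of the best overlapping peak in each library (columns) for the 64 Sox5 and 37 Sox6 regions (rows, in order along the chromosome). White marks no listed peak, and plus and minus signs mark the regions gained (10 and 8) and lost (8 and 1) at Day10 against Day0. Gained rows are white or dark in the Day0 and Day3 columns and green in the Day10 columns.

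The Sox5 region with the best ranks among those gained lay on chromosome 6 from 144043857 to 144044357. No peak overlapped it in either Day0 library, 1 of fold 4.4 did in Day3 replicate 1, and none did in Day3 replicate 2. At Day10 its fold was 37.9 and 35.3. With unlisted libraries set to their lowest listed fold (3.5 and 3.47 at Day0), the Day10 mean was at least 10.5 times the Day0 mean. From 143962566 to 143963066 the folds were 31.2 and 30.2 at Day10, and no peak was listed in the 4 other libraries, which gives at least 8.8 times. From 144360758 to 144361258 they were 24.5 and 22.8, and from 144651416 to 144651916 they were 23.5 and 23.2, again with none listed at Day0 or Day3, which gives at least 6.8 and 6.7 times.

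Other gained Sox5 regions were already overlapped by weak peaks. From 144890527 to 144891027 the fold was 6.4 and 7.5 at Day0, then 5.6 and 5.0 at Day3, then 33.6 and 31.6 at Day10. From 144699391 to 144699891 it was 6.4 and 7.5 at Day0, then 6.1 in both Day3 libraries, then 29.3 and 33.5 at Day10. In both, the Day10 libraries lay above all others and the Day3 libraries below the Day0 libraries. The Day0 and Day3 values are low, with pileups of 8 to 12 where the lowest listed was 5. No Day0 summit lay in the region from 144699391 to 144699891. The Day10 mean was 4.7 and 4.5 times the Day0 mean. The 4 remaining gained Sox5 regions had no listed peak at Day0 or Day3 and folds between 17.8 and 23.5 at Day10. Over the 10 gained regions, 8 were unlisted in both Day0 libraries.

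Gained Sox6 regions reached folds of 17.8 to 27.8 at Day10, and those of Sox5 17.8 to 37.9. The best ranked lay at 115158093 to 115158593 on chromosome 7, with no peak at Day0, a fold of 3.9 in Day3 replicate 1, none in Day3 replicate 2, and 26.4 and 27.0 at Day10, at least 7.7 times the Day0 mean. From 114970264 to 114970764, close to the edge of the window, the folds were 27.8 and 26.5 at Day10 with no peak listed before, at least 7.8 times. From 115801324 to 115801824 the fold was 5.8 and 4.0 at Day0, then 5.6 and 5.0 at Day3, then 24.9 and 25.6 at Day10, which is 5.1 times the Day0 mean. These 3 regions reached about the same level at Day10.

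Weaker gains completed the Sox6 set. From 115780689 to 115781189 the folds were 20.6 and 20.5 at Day10, with none listed at Day0 or Day3. From 115128969 to 115129469 they were 18.7 and 19.5 at Day10, 5.0 and 5.6 at Day3, and no peak was listed at Day0. From 115635864 to 115636364 they were 19.2 and 18.1 at Day10 alone. The other 2 gained Sox6 regions had folds between 17.8 and 20.9 at Day10. Of the 8, 7 were unlisted in both Day0 libraries. At the same pileup over background, the gained regions of both windows would have had a pileup of 25.0 to 49.6 at Day0, where the lowest listed pileup was 5. Total reads are unknown, and the part of depth in the missing Day0 peaks was not tested.

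Some regions missed the rule by little. In the Sox5 window 3 regions, and in the Sox6 window 4, were out on Day0 and Day3 and ranked 50000 or better in only 1 Day10 library. One of them was the Sox6 region from 115722945 to 115723445, at ranks 51269 and 48244, with folds of 17.3 and 18.1. Leaving out 1 library at a time gave 10 to 12 gained Sox5 regions and 8 to 10 gained Sox6 regions against Day0. This drops the condition on that library, so the counts could rise but not fall. Regions also opened just outside the chosen limits. The nearest region on either side of each window lay 2.9 to 32.1 kb away, and 3 of these 4 were called gained at Day10 against Day0.

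**Figure D3:**
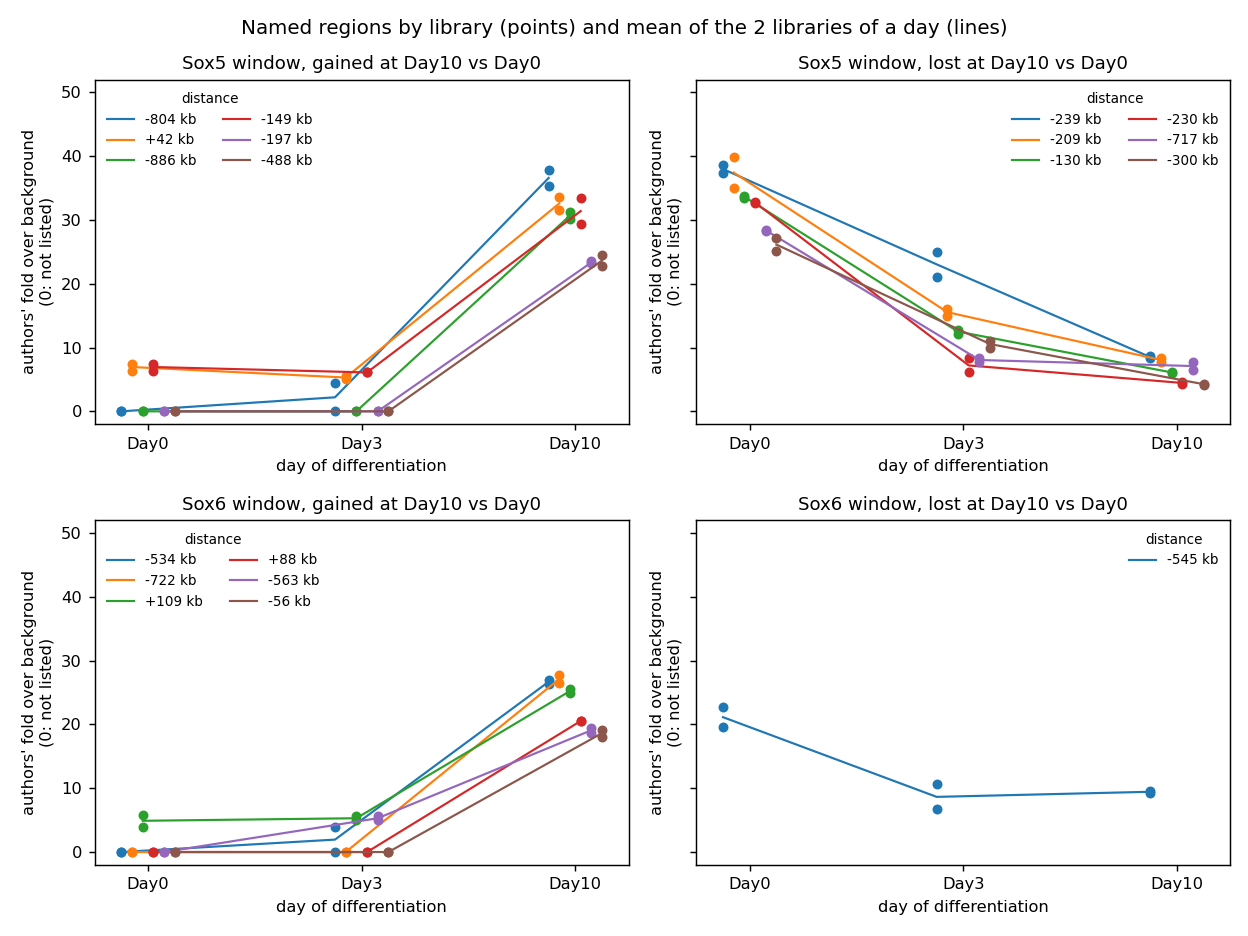
Authors' fold (vertical axis, 0 where not listed) of the regions named by rule, in each library (points) and as the mean of a day (lines), by day of differentiation. Colours give the distance in kb from the best ranked region present on every day in that window. Gained regions stay at or below a fold of 7.5 at Day0 and Day3 and reach 18.1 to 37.9 at Day10, and the lost Sox5 regions fall to 8.6 or below at Day10.

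Of the 9 lost regions, 8 lay in the Sox5 window. From 144609181 to 144609681 the fold was 37.3 and 38.7 at Day0, then 21.1 and 25.0 at Day3, then 8.6 and 8.4 at Day10, a log2 change of -2.16. It was the 1 region called lost against Day3, and without Day10 replicate 2 or Day3 replicate 2 that count was 2. From 144638856 to 144639356 the fold was 35.0 and 39.9 at Day0, then 16.1 and 15.0 at Day3, then 7.7 and 8.4 at Day10. From 144718684 to 144719184 it was 33.8 and 33.5 at Day0, then 12.2 and 12.8 at Day3, then 6.2 and 6.0 at Day10. In these 3 regions the folds of the days did not overlap and Day3 lay between Day0 and Day10. The region from 144638856 to 144639356 held no Day3 summit, so its Day3 folds are those of overlapping peaks with summits outside it.

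The other lost Sox5 regions named by rule differed in how far they had fallen by Day3. From 144618111 to 144618611 the fold was 32.6 and 32.9 at Day0, then 6.1 and 8.3 at Day3, then 4.3 and 4.6 at Day10, the largest fall over the 64 Sox5 regions, with a log2 change of -2.87. From 144131688 to 144132188 it was 28.5 and 28.3 at Day0, then 8.3 and 7.8 at Day3, then 7.7 and 6.5 at Day10. From 144548553 to 144549053 it was 25.1 and 27.2 at Day0, then 10.0 and 11.1 at Day3, then 4.3 and 4.2 at Day10. In the first 2 of these the log2 change of Day10 over Day3 was -0.69 and -0.19, and in the third it was -1.31. The 2 lost Sox5 regions outside the naming rule, from 143834213 to 143834713 and from 143967358 to 143967858, had log2 changes of -1.32 and -1.62 over Day3. All 8 lost Sox5 regions were still listed in both Day10 libraries, with folds of 3.8 to 8.6, against 20.4 to 39.9 at Day0. At Day3, by the best overlapping peak, 2 of the 8 were still within the 50000 strongest of both libraries. Of these 2, the region from 144638856 to 144639356 held no Day3 summit. The other 6 were intermediate, which means neither within that rank nor beyond 100000 in both. Of all regions lost at Day10 against Day0, 32.9% were still strong at Day3 and 61.6% were intermediate. The fold at rank 100000 was lower at Day3 than at Day10, so these states do not date the falls.

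The 1 lost Sox6 region, from 115147542 to 115148042, had a fold of 22.7 and 19.6 at Day0, then 6.7 and 10.6 at Day3, then 9.6 and 9.3 at Day10. Its Day10 values lay within the range of its Day3 values. The fold at rank 100000 was 10.07 and 10.23 at Day10, against 7.57 and 7.51 at Day0. The Day10 folds of this region lay between these limits, as did the 8.6 and 8.4 of the Sox5 region from 144609181 to 144609681. Both regions also met the fold rule for a loss. Without Day0 replicate 1 the Sox6 window had 2 lost regions.

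Gains and losses lay mixed along the windows, with 2 stretches that stood out after their values were seen. In the Sox5 window, 10 of the 16 regions between 144548553 and 144719184, a length of 170.6 kb, had a Day10 mean at or below a log2 change of -1 against Day0. Of those 16 regions 5 were called lost, and 10 met the fold rule for a loss. Over all regions 15.7% had a log2 change of -1 or below, 7.99% were called lost and 11.8% met that fold rule. The same stretch held 3 regions with a log2 change of at least 1, of which 2 were called gained. A region in it, from 144634652 to 144635152, stayed within the 50000 strongest on every day with a log2 change of -0.20, and its folds were 42.5 and 45.1 at Day0, then 37.3 in both Day3 libraries, then 37.4 and 38.6 at Day10. In the Sox6 window, all 6 regions between 115722382 and 115801824, a length of 79.4 kb, had a log2 change of 1.76 to 2.56 with unlisted libraries at their lowest listed fold, and 3 of them were called gained. Over all regions 19.3% had a log2 change of 1 or more and 10.7% were called gained. Listed peaks averaged 51.5 at Day10, against 9 at Day0, between 115670000 and 115770000, and 35 at Day10, against 3.5 at Day0, between 115770000 and 115850000. Both stretches were chosen for their values, so these counts describe them and support nothing further.

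**Figure D4:**
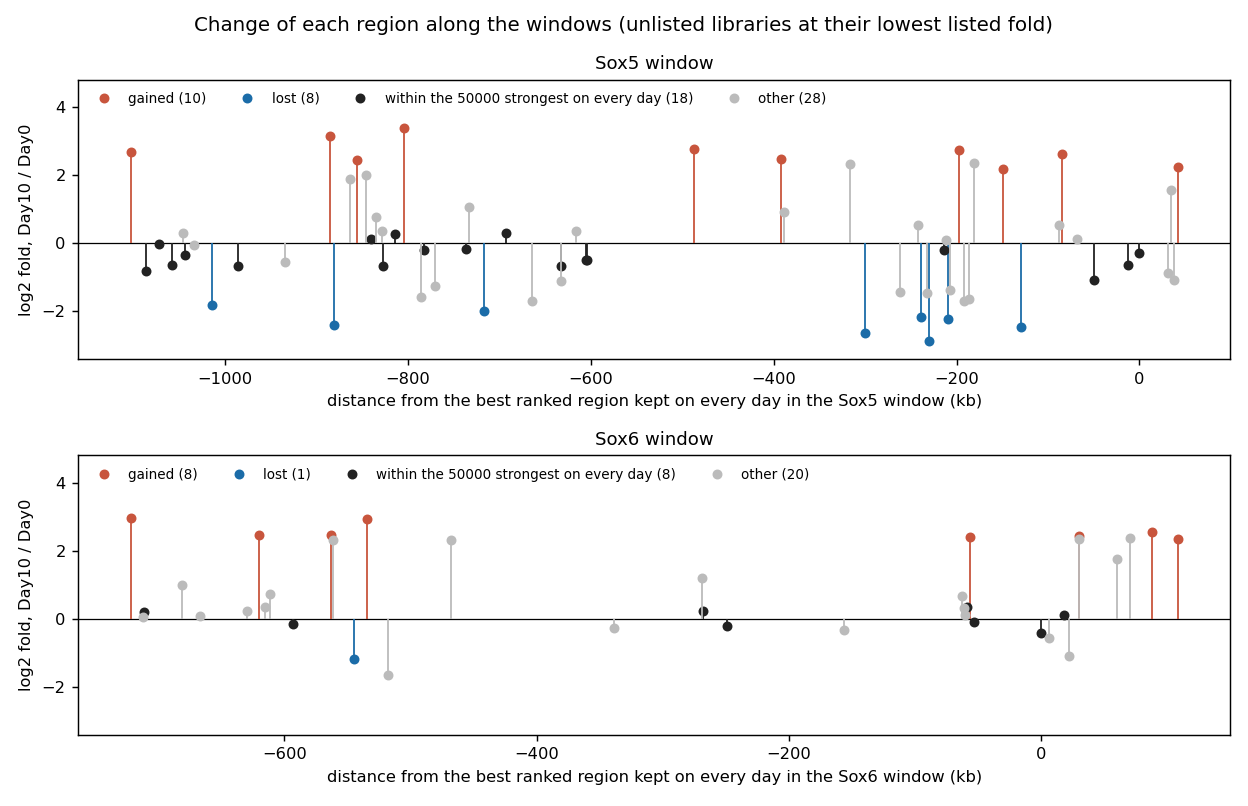
Log2 ratio of the mean fold at Day10 over Day0 (vertical axis) for each region by its distance in kb from the best ranked region present on every day in the Sox5 window (top) and the Sox6 window (bottom), with unlisted libraries at their lowest listed fold. Blue points, lost regions, number 8 in the Sox5 window and 1 in the Sox6 window, and the right end of the Sox6 window holds 6 neighbouring regions above 1.

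Several regions changed in steps without meeting the rank rule, since they started within the 100000 strongest at Day0. They were named after their values were seen. In the Sox5 window, the region from 144002350 to 144002850 had a fold of 9.3 and 10.4 at Day0, then 26.1 and 25.0 at Day3, then 38.4 and 40.4 at Day10. It was the 1 Sox5 region that met the fold rule for a gain at Day3. In the Sox6 window, the region from 115753006 to 115753506 had a similar course, with 11.1 and 12.1 at Day0, then 23.9 and 22.2 at Day3, then 39.8 and 38.6 at Day10. These levels at Day10 were among the highest of their windows. Under the fold rule, 13 Sox5 and 10 Sox6 regions were gained at Day10 against Day0, and 15 Sox5 and 2 Sox6 regions were lost, beside 14.7% gained and 11.8% lost over all regions. This rule reads the best overlapping peak alone. Of the 10 Sox6 gains, the region from 115423763 to 115424263 held no Day10 summit. Its Day10 folds, 28.3 and 27.9, are those of the peak of its neighbour from 115424425 to 115424925, where the log2 change was 0.24. Against Day3 the fold rule gave 11 Sox5 and 8 Sox6 gains, beside 12.8% of all regions, and 1 Sox5 and 0 Sox6 losses, beside 3.22%. The split between gains and losses depended on the scale. With pileup over background in place of the authors' fold, which was tried after the data were seen, the same rule gave 12 gained and 20 lost Sox5 regions and 9 gained and 2 lost Sox6 regions, beside 13.0% gained and 17.5% lost over all regions.

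Regions within the 50000 strongest in all 6 libraries made up a smaller share of both windows than of all regions. They numbered 18 (28.1%) in the Sox5 window and 8 (21.6%) in the Sox6 window, beside 39.7% of all regions. In order of their poorest rank over the 6 libraries, the best in the Sox5 window, from 144848259 to 144848759, had a fold of 52.4 and 52.6 at Day0, then 53.4 and 50.6 at Day3, then 43.7 and 41.8 at Day10. From 143790125 to 143790625 it was 57.7 and 60.7 at Day0, then 49.5 and 52.3 at Day3, then 36.9 and 39.5 at Day10. A pair of neighbouring regions from 144242854 to 144244033 shared 1 overlapping peak in each library, with 55.3 and 53.2 at Day0, then 39.5 and 40.6 at Day3, then 36.5 and 40.9 at Day10. Both regions are counted among the 18. The second held a summit of its own only in Day3 replicate 2, from another peak at rank 31267. The shared peak was the widest listed peak of the window at Day0, at 1381 and 1421 bases. The widest was 1639 and 1441 bases at Day3 and 1546 and 2008 bases at Day10, at other places in the window.

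In the Sox6 window the best ranked of these, from 115692250 to 115692750, had a fold of 48.9 and 56.6 at Day0, then 50.0 and 50.6 at Day3, then 39.8 and 39.0 at Day10. The next in rank had lower folds. From 115639364 to 115639864 the fold was 26.2 and 31.8 at Day0, then 28.4 and 30.0 at Day3, then 26.9 and 27.4 at Day10. From 115710664 to 115711164 it was 25.6 and 24.8 at Day0, then 26.7 and 30.0 at Day3, then 25.9 and 28.8 at Day10. In both regions the Day10 values lay within the range of the Day0 and Day3 values. From 115424425 to 115424925 it was 23.9 and 23.7 at Day0, then 21.1 and 22.2 at Day3, then 28.3 and 27.9 at Day10. Its Day0 peak, of 812 and 816 bases, was the widest of the window on that day, and the widest Sox6 peaks were 1216 and 1270 bases at Day3 and 1737 and 1771 bases at Day10.

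Among these lasting regions, the Day10 mean was lower than the Day0 mean in 15 of 18 in the Sox5 window and in 4 of 8 in the Sox6 window, and it was lower in 74.1% of all such regions. The highest pileup in a list was 136 and 144 at Day10, against 162 and 166 at Day0, and the part of this limit in the lower folds was not tested. With unlisted libraries at their lowest listed fold, the median log2 ratio of Day10 over Day0 was 0.34 over the 37 Sox6 regions and -0.21 over the 64 Sox5 regions, beside -0.14 over all regions. With pileup over background in place of the authors' fold, the median over all regions was -0.46. Relative to the median of all regions, the Sox6 median was 0.48 higher and the Sox5 median 0.07 lower on both scales. At Day3 against Day0 the Sox5 median was 0.23 below that of all regions and the Sox6 median 0.03 above it.

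Replicates of a day differed little. Over the regions of both windows listed in both libraries of a day, the median absolute log2 difference between replicates was 0.12 at Day0, 0.12 at Day3 and 0.09 at Day10. The largest was 0.53, 0.66 and 0.57 on the 3 days. Squared differences between the 2 libraries of a day were 0.23 to 0.24 times those of Poisson sampling in the windows and 0.32 to 0.37 times over all regions. Whether pileups of listed peaks follow Poisson sampling was not tested, and neither was the independence of the 2 libraries. As a caution, the 2 libraries of a day are read here as no more than 1 independent sample. The spread may be technical, although the labels describe independent biological replicates. The smallest listed widths were 88 and 90 bases at Day0, then 87 and 88 at Day3, then 68 and 72 at Day10, and the word lysis stands in the peak names at Day3 alone. An effect of the day and one of handling a day's libraries apart from the others cannot be told apart.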

How the data were processed

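Peaks were listed by the authors for each of the 6 libraries alone. Reads were trimmed with Trim Galore and the build was named mm10, per the submitters' processing notes, while scaffold names in the lists belong to GRCm39. The aligner, the peak caller and any shift for the Tn5 cut site were not given in the sources used here. Each deposited row gives, as the authors' own values, an integer score, the fold ratio, and both a p and a q on the -log10 scale. The fold ratio deposited was (pileup + 1) / (background + 1), and pileups recovered from it were whole within 0.01 in 100.0% of peaks. Total read numbers are unknown, so depth is known only through the background.

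Computed here with Python 3.11.15, numpy 2.4.6 and pandas 2.3.3, on chromosomes 1 to 19, X and Y, were ranks (by -log10 p, then fold, then position), regions, calls and ratios. The calling steps were tested on simulated lists. Groups came from the sample titles. No p-value was computed from 2 libraries against 2. Named regions are, per window, the 6 gained and 6 lost regions with the best poorer rank at Day10 against Day0, 3 of each for the other comparisons, the 4 regions with the best poorest rank over the 6 libraries and the widest peak. Planned counts for other cartilage genes, and gene parts, need an annotation of the lists' build and were not run. The windows, lists and rules were chosen with earlier results of these data known.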

Additional observations from a re-analysis of the deposited data

How the results depend on the processing

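No paired analysis was possible because the results come from no test: calls are made from ranks in each library and ratios from means, with no fit that could hold a block. Without the gap between ranks 50000 and 100000, Day10 against Day0 gave 17 gained and 19 lost Sox5 regions and 4 lost Sox6 regions. Over all regions 18.1% were then gained and 17.5% lost. Day10 against Day3 gave 9 lost Sox5 and 4 lost Sox6 regions, beside 14.1% of all regions. Day3 against Day0 gave 3 gained and 7 lost Sox5 regions and 5 gained and 2 lost Sox6 regions, beside 7.99% gained and 7.65% lost over all regions. With rank 30000 as the limit, gained regions numbered 4 for Sox5 and 3 for Sox6 against either earlier day. Over all regions 4.06% were gained against Day0 and 2.59% against Day3. Lost Sox5 regions numbered 5 against Day0 and 0 against Day3, and lost Sox6 regions 0. Over all regions 2.21% were lost against Day0 and 0.427% against Day3. The Sox5 balance of 10 gained and 8 lost regions turned at rank 30000, without the gap and under both fold rules. Under the summit rule alone it was even, with 10 gained and 10 lost, beside 12.0% and 10.0% of all regions. The fold rule gave 13 gained and 15 lost Sox5 and 2 lost Sox6 regions at Day10 against Day0. Over all regions 14.7% were gained and 11.8% lost. At Day3 it gave 1 gained and 6 lost Sox5 regions, beside 1.09% and 3.32% of all regions. On pileup over background it gave 12 gained and 20 lost Sox5 and 2 lost Sox6 regions at Day10 against Day0. The shares of all regions were 13.0% gained and 17.5% lost. Against Day3 it gave 8 lost Sox5 regions, beside 5.65% of all regions. At Day3 against Day0 it gave 1 gained and 7 lost Sox5 regions and 1 lost Sox6 region. The shares of all regions were 1.03% gained and 4.46% lost. Regions reaching 500 bases to either side gave 2 lost Sox5 regions at Day10 against Day3, beside 3.25% of all regions. The overlap rule alone also gave 2, beside 3.29%. The summit rule alone gave 1 lost Sox6 region at Day10 against Day3, beside 4.59% of all regions. It gave 1 lost Sox5 region at Day3 against Day0, beside 1.72%. This Sox5 region, from 144638856 to 144639356, was overlapped at Day3 at ranks 44923 and 49047 by peaks with summits outside it. The overlap rule alone called it lost at Day10 against Day3. The Sox6 region, from 115423763 to 115424263, was likewise overlapped at Day10 at ranks 19030 and 20793. Why other counts moved was not tested. A minimum -log10 q of 5 left every call as it was, which was fixed in advance, since every library kept more than 100000 peaks at that limit. Of 26 results on named regions, 8 lost their call at rank 30000 and 26 kept it under each other setting. The summit rule alone, the overlap rule alone and the missing gap each ask for less, so no call could be lost under them.

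For Day10 over Day0, the ratio of peaks was 1.98, 1.8, 1.03 and 2.38 for Sox5, and 3.13, 2.89, 1.63 and 3.77 for Sox6, at a -log10 q of 5 and of 10, among the 50000 strongest peaks, and at matched depth. For Day10 over Day3 these were 2.56, 2.14, 1.18 and 2.57 for Sox5, and 3.16, 3.08, 1.29 and 3.6 for Sox6. For Day3 over Day0 the first 3 were 0.77, 0.84 and 0.87 for Sox5, and 0.99, 0.94 and 1.27 for Sox6, so the Sox6 ratio lay on either side of 1. Leaving out 1 library at a time, the Sox5 ratio was 2.99 to 3.16, 3.03 to 3.2 and 0.96 to 1.01 over these 3 comparisons, and the Sox6 ratio 4.44 to 4.79, 4.01 to 4.34 and 1.09 to 1.12. Gained regions at Day10 then numbered 10 to 12 for Sox5 and 8 to 10 for Sox6 against either day. Leaving out a library drops its condition, so counts of calls could rise but not fall. Lost Sox5 regions numbered 8 to 9 against Day0 and 1 to 2 against Day3, and 0 to 1 at Day3 against Day0. Lost Sox6 regions numbered 1 to 2 at Day10 against Day0 and 0 to 1 at Day3 against Day0, where the 1 call of each window came without Day3 replicate 2. Total reads are unknown, so what depth limits is known only from the matched counts.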
